A study of Rattus norvegicus with 10 samples.

Results

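Fc gamma receptors bind the constant part of IgG antibodies and let myeloid cells such as microglia, the resident macrophages of the brain, take up and respond to what the antibodies have coated. The activating receptors pass their signal through Fcer1g, the shared Fc receptor gamma chain, whose tyrosine motif recruits the kinase Syk, while Fcgr2b carries an inhibitory tyrosine motif that recruits phosphatases. The Clec4a genes code for C-type lectins of the DCIR group, membrane proteins of myeloid cells that lie side by side in the genome and include inhibitory members. In bulk RNA-seq of the dentate gyrus of rats 3 weeks after traumatic brain injury (TBI), the gene table held 6 genes of this set. The level of each was higher in all 3 TBI libraries than in all 3 sham libraries, an order found in 11.7% of all genes. The set was chosen from this comparison, so this is a description.

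The set has 8 genes, taken by symbol: the receptors Fcgr1a, Fcgr2a, Fcgr2b and Fcgr3a, the chain Fcer1g, and the lectins Clec4a1, Clec4a2 and Clec4a3. It was chosen because Clec4a3 was among the leading genes of the bulk comparison, so the bulk values below are a description and carry no test of these genes. The bulk table of 14166 genes held 6 of the 8, all but Fcgr2a and Clec4a2, and the nucleus matrices of 25399 genes held all 8.

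The rats were male Sprague-Dawley rats, and each library came from the dentate gyrus of 1 rat on the injured side. TBI rats had a craniectomy followed some days later by a moderate lateral fluid percussion, a pressure pulse onto the exposed dura. Sham rats had the same surgery without the pulse, and the naive rat had no surgery. There were 6 bulk RNA-seq libraries, 3 from sham and 3 from TBI rats, and 4 libraries of single-nucleus RNA-seq (snRNA-seq), from 2 TBI rats, 1 sham rat and 1 naive rat. In bulk tissue, more cells of a type and more RNA per cell cannot be told apart.

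Bulk libraries held 25121893 to 44649404 estimated counts. Prox1, which marks the granule neurons of the dentate gyrus, ranged from 16.0 to 106 CPM (counts scaled to the same total in every library) in sham and from 24.8 to 76.0 CPM in TBI, so the libraries of each group differed widely in this marker. The nucleus matrices kept 55124 nuclei after the study's filters, of which 1472 (2.67%) were gated as microglia by carrying UMIs (unique molecular identifiers, which count captured RNA molecules) of at least 3 of 13 microglia markers and of more of them than of any other class. Gated microglia numbered 309 and 612 in TBI rats 1 and 2, 210 in sham and 341 in naive, with medians of 638 to 807 UMIs per nucleus against 1840 to 2814 in gated neurons. Of the barcodes, 314 occurred in more than 1 library, and 0 were gated as microglia in more than 1. How many of the 314 had a single copy in the gate was not counted. Microglial RNA was also found outside the gate: the marker Csf1r, the receptor for the growth factor that keeps microglia alive, had 184, 379, 103 and 304 UMIs inside it in TBI rats 1 and 2, sham and naive, and 411, 391, 266 and 253 outside.

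In the RefSeq annotation of assembly GRCr8, Clec4a1, Clec4a3 and Clec4a2 follow one another on chromosome 4 and are followed by Clec4a, a related lectin outside the set. Fcgr2b, Fcgr3a and Fcgr2a follow one another on chromosome 13, which also holds Fcer1g, and Fcgr1a lies on chromosome 2. Such neighbouring copies can share reads, and RefSeq lists Fcgr3a among the older symbols of Fcgr2a, so that values of the low-affinity receptors are uncertain between these genes. RefSeq promoters (250 bases before to 50 bases after the start) were at hand for 5 of the 8 genes. The letters GAGGAA, the core of sites for PU.1-type ETS factors that are known for their role in myeloid cells, were searched on both strands and occurred in 4 of these 5 promoters and in 27.5% of 27457 rat promoters. The promoter of Clec4a2 lacked them in this window. TTCNNNGAA, the core of STAT sites, occurred in 0 of the 5 and in 8.7% of all. The promoters of the lectin genes with the largest bulk differences and of the receptor Fcgr3a are shown because these 3 genes were measured in bulk and had a promoter in the table. All 3 lie on the plus strand of GRCr8, at chr4:157845561-157845860 for Clec4a1, chr4:157886508-157886807 for Clec4a3 and chr13:85782386-85782685 for Fcgr3a. Capitals mark GAGGAA or its reverse complement.
Clec4a1: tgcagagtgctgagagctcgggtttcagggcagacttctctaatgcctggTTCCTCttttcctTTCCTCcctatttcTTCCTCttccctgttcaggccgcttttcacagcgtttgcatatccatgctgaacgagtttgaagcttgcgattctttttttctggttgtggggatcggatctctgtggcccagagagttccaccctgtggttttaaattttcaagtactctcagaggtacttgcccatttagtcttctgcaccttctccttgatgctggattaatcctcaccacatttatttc
Clec4a3: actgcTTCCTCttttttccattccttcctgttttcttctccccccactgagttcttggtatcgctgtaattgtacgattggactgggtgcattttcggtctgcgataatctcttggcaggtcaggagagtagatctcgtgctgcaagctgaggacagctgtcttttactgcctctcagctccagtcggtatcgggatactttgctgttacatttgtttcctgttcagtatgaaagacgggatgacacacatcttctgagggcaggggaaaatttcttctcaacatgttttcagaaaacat
Fcgr3a: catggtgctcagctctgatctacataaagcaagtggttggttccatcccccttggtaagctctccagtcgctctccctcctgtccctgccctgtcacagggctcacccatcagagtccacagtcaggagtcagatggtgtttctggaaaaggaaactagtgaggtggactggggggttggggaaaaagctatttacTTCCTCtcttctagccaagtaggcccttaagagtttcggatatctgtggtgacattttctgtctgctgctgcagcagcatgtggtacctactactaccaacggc
The matches began 200, 187 and 173 bases before the start of Clec4a1, 245 bases before that of Clec4a3 and 54 bases before that of Fcgr3a. A match of letters is a description of the sequence and does not show that a factor binds there.

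The question put to the bulk data was how far the expression of these genes in the dentate gyrus of TBI rats stood from that of sham rats. Clec4a3, a DCIR-type lectin, had levels of 1.14, 0.917 and 0.957 CPM in sham libraries 1, 2 and 3 and of 4.65, 5.95 and 3.56 CPM in TBI libraries 1, 2 and 3. The lowest TBI library stood clear of the highest sham library, and the groups did not overlap. Its Log2FC, the log2 ratio of TBI to sham by edgeR, was 2.19 ± 0.30 (SE, n = 3 and 3), rank 98 of 14166 genes by Log2FC and rank 5 by p. The estimated counts behind these levels were 25 to 42 in sham and 100 to 182 in TBI.

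Clec4a1, the neighbouring lectin, had 1.75, 1.50 and 1.18 CPM in sham and 2.87, 4.90 and 6.09 CPM in TBI. Here TBI library 3 was the highest and TBI library 1 the lowest of the injured rats, and the groups did not overlap. Its Log2FC was 1.61 ± 0.34. Clec4a, which follows in the genome and was not part of the set, had 0.886, 0.477 and 0.477 CPM in sham and 0.445, 1.41 and 1.10 CPM in TBI, and its groups overlapped, with a Log2FC of 0.67 ± 0.56.

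Fcer1g, the gamma chain without which the activating receptors do not signal, had 14.8, 20.1 and 17.6 CPM in sham and 31.2, 60.2 and 30.3 CPM in TBI. TBI library 2 stood far above the other TBI libraries, which were close to each other and above every sham library. The Log2FC was 1.18 ± 0.29.

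Among the receptors, Fcgr2b, the inhibitory one, had 6.89, 11.0 and 8.13 CPM in sham and 15.9, 33.7 and 12.4 CPM in TBI, a Log2FC of 1.22 ± 0.39. Fcgr3a, a low-affinity activating receptor, had 2.74, 3.23 and 2.85 CPM in sham and 6.07, 9.70 and 3.56 CPM in TBI, a Log2FC of 1.10 ± 0.37. For both receptors TBI library 2 was the highest, and TBI library 3 lay just above the highest sham library. Fcgr1a, the high-affinity IgG receptor also known as CD64, had 2.59, 3.08 and 2.23 CPM in sham and 4.61, 3.46 and 4.42 CPM in TBI. It had the smallest Log2FC of the 6 genes, 0.62 ± 0.25, and TBI library 2 was its lowest injured library.

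**Figure D1:**
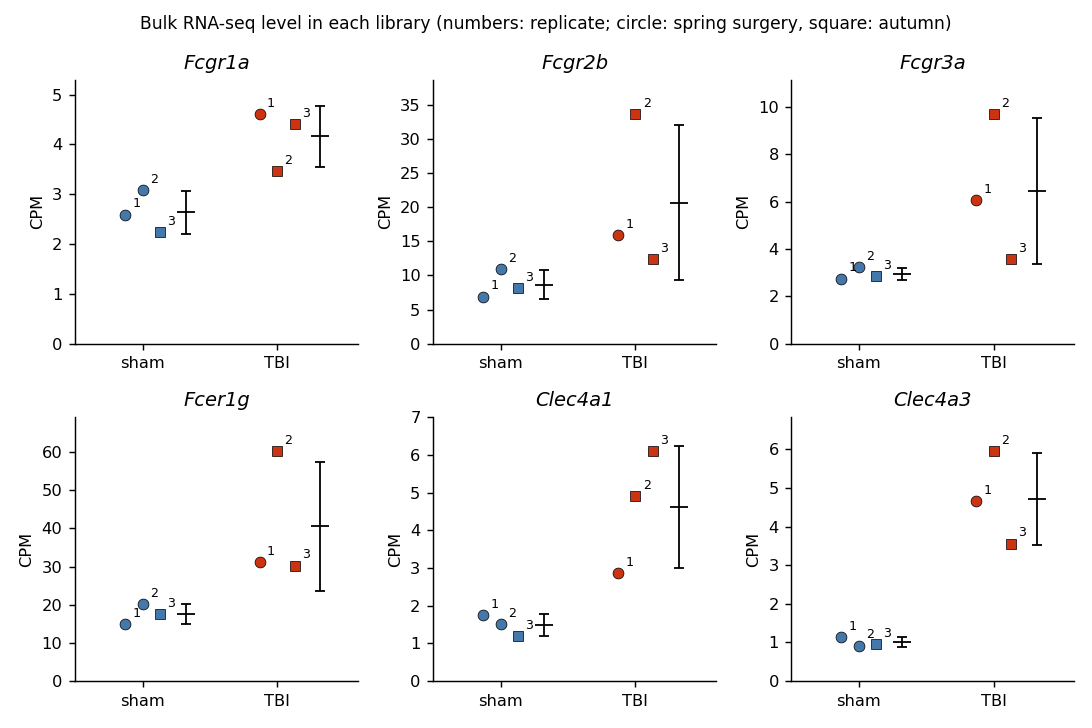
Bulk level in CPM (vertical axes, each starting at 0) of the 6 measured genes in 3 sham and 3 TBI libraries, with 1 point per library labelled by replicate, and the mean with SD beside the points. In every panel the 3 TBI points lie above the 3 sham points. TBI replicate 2 is the highest for Fcgr2b (33.7 CPM), Fcgr3a (9.70 CPM), Fcer1g (60.2 CPM) and Clec4a3 (5.95 CPM) and the lowest TBI library for Fcgr1a (3.46 CPM).

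All 6 measured genes thus had TBI libraries above sham libraries, which held for 11.7% of the 14166 genes, and a Log2FC above 0, which held for 49.4%. Their median Log2FC was 1.20, where the median over all genes was -0.003. By edgeR's quasi-likelihood test 0 of the 14166 genes (0%) had an FDR under 0.01, and 1360 had an unadjusted p under 0.05 (1162 of them, or 8.2% of all genes, higher in TBI), while limma also called 0. DESeq2 called 166 genes higher in TBI (1.17%), among them Clec4a1 and Clec4a3. Since the set was chosen from this comparison, these counts describe it and no more.

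TBI replicate 2 weighed on the values. Without it, the median Log2FC of the 6 genes was 0.73, with Fcgr2b at 0.64, Fcgr3a at 0.65 and Fcer1g at 0.74, whereas Clec4a3 was at 1.97 or more whichever library was left out. The deposited dates of injury or sham procedure were split by month, without regard to the year. Dates before July are called spring here (sham 1 and 2, TBI 1) and later ones autumn (sham 3, TBI 2 and 3). The TBI minus sham difference in log2 CPM was 2.16 in spring and 2.25 in autumn for Clec4a3, and 0.82 in spring and 2.20 in autumn for Clec4a1. For the other 4 genes the differences were 0.70 to 1.02 in spring and 0.81 to 1.33 in autumn.

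Markers of microglia moved with these genes in bulk. The 13 gate markers in the bulk table were all higher in TBI, with a median Log2FC of 0.99, and their summed level was 329, 336 and 293 CPM in sham and 505, 854 and 512 CPM in TBI, highest in TBI library 2. Without TBI replicate 2 their median was 0.59, and 12 of the 13 were higher. Markers of border macrophages, which live in the meninges and around vessels, were higher for 7 of 7, with a median of 1.28 and sums of 17.2, 20.3 and 17.4 CPM in sham and 30.1, 33.1 and 80.7 CPM in TBI. That sum was highest in TBI library 3, the library in which Clec4a1 was also highest. Markers of the other gated classes differed in direction between them: 11 of 12 oligodendrocyte markers (median Log2FC -0.72) and 12 of 12 neuron markers (-0.26) were lower in TBI, and 11 of 11 endothelial (0.46), 8 of 8 pericyte (0.40) and 8 of 10 astrocyte markers (0.28) were higher, with 0 called by edgeR. Of the oligodendrocyte precursor markers 3 of 6 were higher (median -0.04). What part any of these marker lists had in the values of the Fc receptors and lectins was not tested.

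Dividing each gene by the summed CPM of the 13 microglia markers in the same library gave a further view of the same data. Clec4a3 per marker CPM was 0.00347, 0.00273 and 0.00326 in sham and 0.00920, 0.00696 and 0.00695 in TBI. The groups remained apart, with a log2 ratio of the means of 1.29. Clec4a1 gave 0.00533, 0.00448 and 0.00404 in sham and 0.00568, 0.00574 and 0.0119 in TBI, a log2 ratio of 0.75, with TBI libraries 1 and 2 close to the highest sham library. The ranges of the other 4 overlapped in part, with log2 ratios of -0.18 for Fcgr1a, 0.23 for Fcgr2b, 0.13 for Fcgr3a and 0.21 for Fcer1g. Fcer1g in TBI libraries 1 and 2 and Fcgr3a in the same libraries remained above all 3 sham libraries. Over all 14166 genes, 125 (0.882%) had all TBI libraries above all sham libraries after this scaling, against 2 of the 6 genes here, 1 of which, Clec4a3, is the gene the set was chosen for, so the count is a description.

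**Figure D2:**
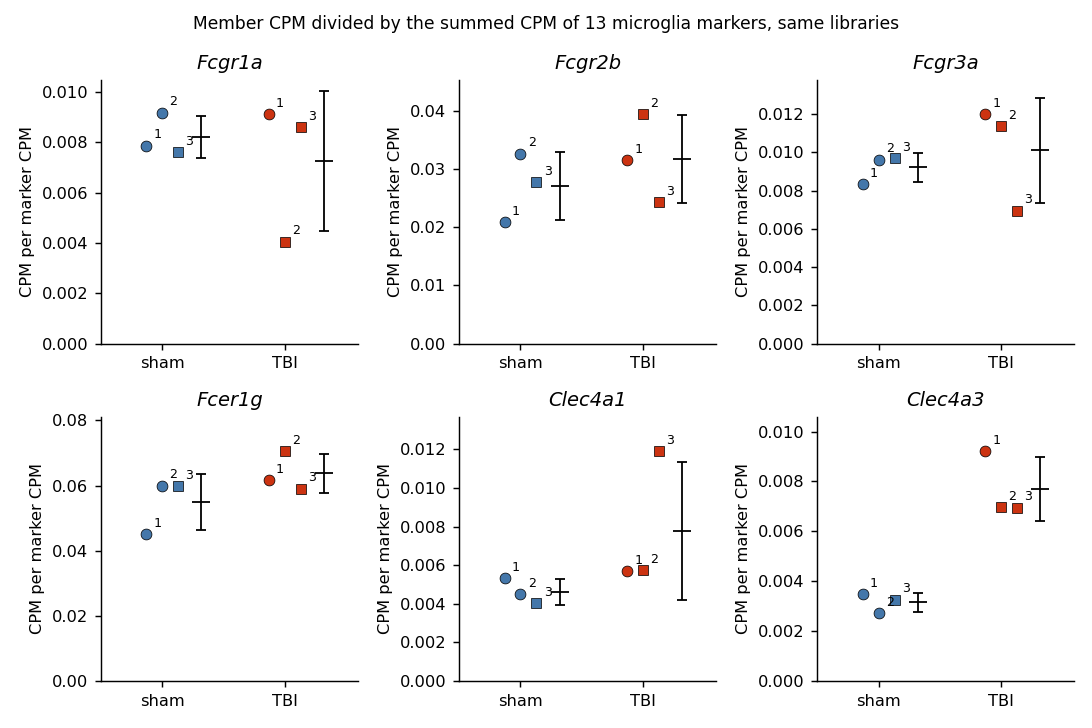
CPM of each gene divided by the summed CPM of 13 microglia markers in the same bulk library (vertical axes, no unit), with 1 point per library labelled by replicate and the mean with SD beside the points. The sham and TBI ranges overlap in part for Fcgr1a, Fcgr2b, Fcgr3a and Fcer1g, while for Clec4a3 the TBI points (0.00695 to 0.00920) lie above the sham points (0.00273 to 0.00347).

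The 5 genes whose log2 CPM followed Clec4a3 most closely over the 6 bulk libraries, among 13153 genes with a mean log2 CPM of at least 0, were Il21r (Pearson r = 0.997), Ntsr2 (0.992), Apobec1 (0.992), Bid (0.992) and Irag2 (0.990). Those closest to Fcer1g were Man2b2 (0.999), Cd300a (0.997), Cndp1 (0.996), Lat2 (0.996) and Ptpn6 (0.996). The 5 genes closest to the lectin and the 5 closest to the gamma chain were not the same. All these correlations rest on the same 6 libraries, which fall into 2 groups, and carry no test.

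Downstream of the receptors, the 22 genes of Fc receptor signalling (kinases, adaptors and phosphatases such as Syk, Lyn and Inpp5d) were all in the bulk table, and all 22 were higher in TBI, with a median Log2FC of 0.86. In 17 of them the TBI libraries lay above the sham libraries, an order found in 11.7% of all genes. None had an FDR under 0.01 by edgeR (0 genes), and 16 had an unadjusted p under 0.05, against 8.2% of all genes in this direction. DESeq2 called 3, namely Vav1, Tyrobp and Ptpn6, where it called 1.17% of all genes higher. Vav1, an exchange factor for Rac, was at 2.57 ± 0.161 CPM in sham and 8.07 ± 2.81 CPM in TBI (SD, n = 3 each), a Log2FC of 1.61 ± 0.28. Tyrobp, or DAP12, an adaptor with a motif like that of Fcer1g, had a Log2FC of 1.48 ± 0.29. Ptpn6, or SHP-1, a phosphatase that binds inhibitory motifs, had 1.43 ± 0.30. Without TBI replicate 2 the median of the list was 0.64.

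Of 10 other Fc-binding receptors 4 were in the bulk table, and all 4 were higher, with a median Log2FC of 0.71. By edgeR and by DESeq2 0 were below an FDR of 0.01. An unadjusted edgeR p under 0.05 was found for 3, against 8.2% of all genes in this direction. Fcrl2, an Fc receptor-like protein, stood at 9.25 ± 4.42 CPM in sham and 62.4 ± 46.1 CPM in TBI (SD, n = 3 each), Fcgrt, the neonatal Fc receptor that recycles IgG, had a Log2FC of 0.79 ± 0.22, and Trim21, a cytosolic antibody receptor, had 0.64 ± 0.26. Of 14 other myeloid C-type lectins 7 were in the table and 6 were higher, with a median of 1.81 and a range from -1.65 to 3.25. Clec12a, an inhibitory lectin, was at 0.341 ± 0.320 CPM in sham and 3.34 ± 1.11 CPM in TBI, the macrophage mannose receptor Mrc1 had a Log2FC of 1.84 ± 0.52, and Clec5a had 0.82 ± 0.25. By edgeR 0 of the 7 passed, and 5 had an unadjusted p under 0.05, against 8.2% of all genes in this direction. DESeq2 called 1, Clec12a, where it called 1.17% of all genes higher. Without TBI replicate 3 the median of the lectins was 0.94. Of 7 immunoglobulin chain genes only Jchain was matched to a gene of the RefSeq annotation, and the bulk table did not hold it. The others had no match and could not be looked up, so the antibody side was not read in bulk.

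**Figure D3:**
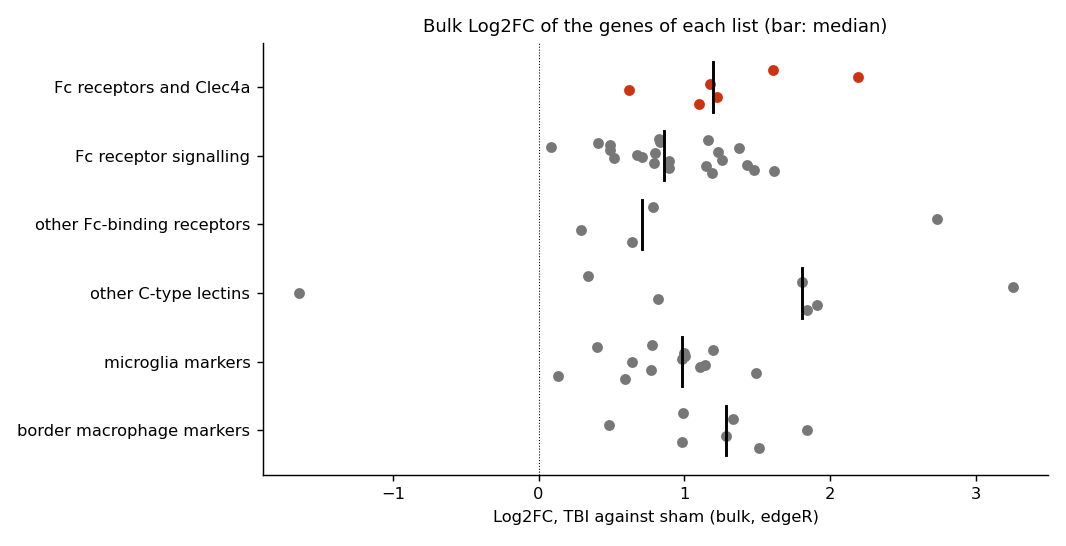
Bulk Log2FC of TBI against sham by edgeR (horizontal axis) for each gene of the set (red) and of 5 other lists (grey), 1 point per gene, with a bar at each list's median. The medians are 1.20 for the Fc receptors and Clec4a lectins, 0.86 for Fc receptor signalling, 0.71 for other Fc-binding receptors, 1.81 for other C-type lectins, 0.99 for microglia markers and 1.28 for border macrophage markers.

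The nucleus data, from other rats than the bulk libraries, were asked first in which nuclei these genes are found. UMI sums of gated microglia were compared with the sums of all other nuclei of the same rat by edgeR's quasi-likelihood test with the rat as a block. Of the 8 genes 7 were higher in microglia at an FDR under 0.01, a call that 8.44% of the 17977 genes tested received in that direction. Each of the 7 was higher in 4 of 4 rats, as were 16.2% of the genes tested. For each, the lowest microglia level also lay above the highest level of the summed other nuclei. The share of all genes that meet this stricter criterion was not counted. None of the 8 genes was used for the gate.

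Fcer1g was at 43.0, 147, 75.3 and 158 CPM (here UMIs scaled to the same total for each sum) in microglia of TBI rats 1 and 2, the sham and the naive rat, and at 4.50, 6.69, 3.50 and 1.57 in their other nuclei. The separation held in every rat, and the Log2FC was 4.56 ± 0.29 (edgeR FDR 5.8e-54). Of its 654 UMIs, 161 (24.6%) lay in the gate, which held 1.07% of all UMIs.

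The receptors had Log2FCs of 4.74 ± 0.48 for Fcgr2a (edgeR FDR 2.2e-21), 4.97 ± 0.58 for Fcgr3a (4.3e-16), 3.77 ± 0.44 for Fcgr2b (1.7e-16) and 3.68 ± 0.57 for Fcgr1a (1.6e-09). Fcgr2a, a low-affinity receptor that the bulk table did not hold, ranged from 16.1 to 47.1 CPM in microglia and from 0.883 to 1.61 in other nuclei. Fcgr1a ranged from 13.2 to 30.5 in microglia and from 0.839 to 1.54 outside. Restricted to nuclei of at least 1000 UMIs, which left 55, 108, 29 and 56 microglia in TBI rats 1 and 2, sham and naive, its Log2FC was 2.21 and its edgeR FDR 0.314.

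The lectins Clec4a1 and Clec4a3 had Log2FCs of 5.71 ± 0.66 (edgeR FDR 3.0e-16) and 4.999 ± 0.63 (4.6e-14). Clec4a3 was at 6.61, 21.1, 26.9 and 19.4 CPM in microglia of TBI rats 1 and 2, sham and naive, and at 0.280, 1.37, 0.256 and 0.232 in the other nuclei. Every microglia value was above every other value, though these levels rest on 25 UMIs inside the gate and 61 outside.

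Clec4a2, the third lectin, was the exception. It had 0, 7, 0 and 1 UMIs in the microglia of TBI rats 1 and 2, sham and naive, and 119 UMIs in other nuclei, 94 of them in neurons. With all rats pooled its level was 0.948 CPM in neurons, 0.965 in astrocytes and 0.935 in all nuclei outside the gate. It was thus not particular to neurons. A count of 0 allows up to 9.91 CPM in microglia of TBI rat 1 and up to 16.1 in those of the sham rat, above its level in other nuclei (0.399 to 1.88). Its Log2FC was 1.86 ± 0.83, with a 95% interval from 0.22 to 3.49 and an edgeR FDR of 0.095, and 7 of its 8 microglial UMIs came from TBI rat 2. Without that rat the Log2FC was 0.38.

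**Figure D4:**
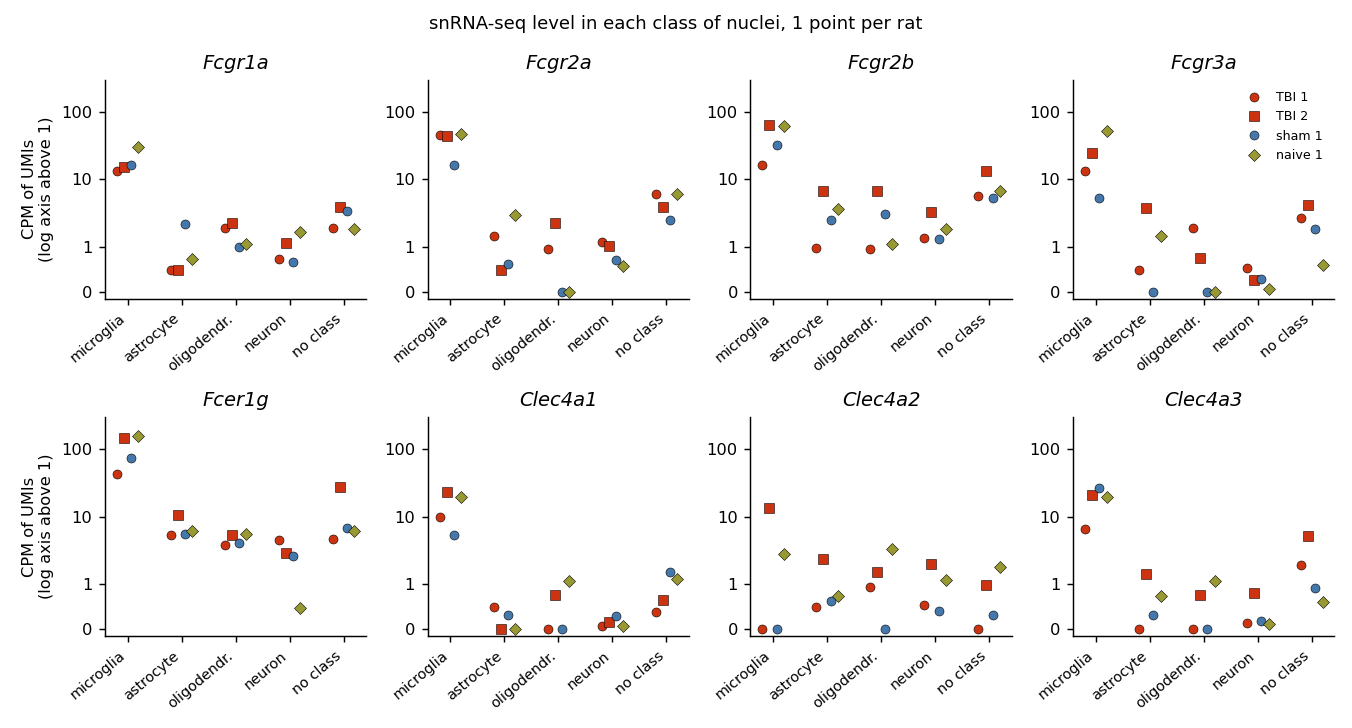
snRNA-seq level of the 8 genes in CPM of UMIs (vertical axis, logarithmic above 1 and linear below) in 4 gated classes of nuclei and in nuclei without a class, 1 point per rat. For 7 genes the microglia points lie above all points of the other nuclei shown, and for Clec4a2 they range from 0 to 13.4 and overlap with them. Oligodendrocyte precursor, endothelial and pericyte nuclei are not shown. Precursors of 1 rat reached 7.88 CPM for Fcgr3a (3 UMIs) and of another 7.82 for Clec4a1 (2 UMIs), above sham microglia (5.38 for both). Pericytes of TBI rat 1 reached 164 for Fcgr2b from 1 UMI.

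Across the classes, Fcer1g was at a median over the 4 rats of 111 CPM in microglia, 5.88 in astrocytes, 4.69 in oligodendrocytes and 2.81 in neurons. Nuclei that met no gate had 6.45, with a range of 4.62 to 27.8. The ranges of astrocytes (5.39 to 10.5), oligodendrocytes (3.78 to 5.54) and nuclei without a class overlapped, so no order among them can be read. Clec4a3 had medians of 20.2 in microglia, 1.43 in nuclei without a class, 0.525 in astrocytes, 0.381 in oligodendrocytes and 0.169 in neurons, and the ranges of these classes other than microglia overlapped. Free RNA also gives UMIs in nuclei that do not express a gene, and the low levels outside the gate cannot be told apart from it here.

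The signalling genes were found in the same nuclei. Of the 22, 21 were higher in microglia at an FDR under 0.01, where 8.44% of the 17977 genes tested were. The median Log2FC over the list was 4.92. Lcp2, or SLP-76, an adaptor downstream of Syk, had 5.39 ± 0.19, Pik3ap1, an adaptor of phosphoinositide 3-kinase, 5.36 ± 0.19, and Blnk, another Syk substrate, 5.31 ± 0.19. Dok2, an adaptor that dampens Ras signalling, was the 1 that did not pass, with a Log2FC of -1.13 (edgeR FDR 0.674) from 1 UMI in the gate. Of the other Fc-binding receptors, 5 of 7 tested were higher in microglia, and the 3 with the smallest p were Fcrl2 (4.77 ± 0.62), Trim21 (2.76 ± 0.56) and Fcgrt (2.16 ± 0.45). Of the other lectins, 4 of 10 tested were higher by edgeR and 3 by DESeq2, and the 3 with the smallest edgeR p were Cd302 (2.13 ± 0.23), Mrc1 (3.52 ± 0.60) and Clec5a (4.98 ± 0.91). Mrc1, also a marker of border macrophages, was the 1 that DESeq2 did not call (FDR 0.369): it had 0, 13, 12 and 0 UMIs in the gate of TBI rats 1 and 2, sham and naive, and was higher in microglia in 2 of 4 rats. Of the immunoglobulin chains, Ighm, the heavy chain of IgM, was higher (2.77 ± 0.55) on 24 UMIs, and Jchain and Ighg1 had 0 UMIs in the gate.

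The second question to the nuclei was whether microglia of TBI rats differed from those of the controls, the sham and the naive rat together. By edgeR on sums per rat, 0 of 10658 genes (0%) passed an FDR of 0.01, 282 (2.65%) had an unadjusted p under 0.05, and DESeq2 called 0. None of the 7 members with enough UMIs to test passed. With 2 rats against 2, the intervals were wide.

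Fcer1g had 13 and 77 UMIs in the microglia of TBI rats 1 and 2, and 14 and 57 in those of the sham and the naive rat. At 43.0 and 147 CPM in TBI against 75.3 and 158 in control, the TBI rats lay further from each other than the group means did. The Log2FC was -0.30 ± 0.53, with a 95% interval from -1.50 to 0.89 and an edgeR FDR of 0.999.

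Clec4a3 had 2 and 11 UMIs in TBI rats 1 and 2, 5 in sham and 7 in naive, or 6.61, 21.1, 26.9 and 19.4 CPM. The lowest value was that of a TBI rat, and the groups overlapped. Its Log2FC was -0.59 ± 0.74 (95% interval -2.25 to 1.08), where the bulk libraries gave 2.19. The 2 assays used different rats and different RNA (that of nuclei against polyA RNA of tissue), and the difference between them was not tested.

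Fcgr3a had 4, 13, 1 and 19 UMIs in TBI rats 1 and 2, sham and naive. The 2 controls stood at 5.38 and 52.7 CPM, with 95% Poisson intervals from 0.136 to 30.0 and from 31.7 to 82.2 that did not overlap, and both TBI rats lay between them. Its Log2FC of -0.75 ± 0.77 was 1.77 without the naive rat. Clec4a1, with 3, 12, 1 and 7 UMIs in the same order, was likewise lowest in the sham rat, and its Log2FC was 0.29 ± 0.81.

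Of the others, Fcgr2a had 14, 23, 3 and 17 UMIs (Log2FC 0.36 ± 0.53) and Fcgr2b 5, 33, 6 and 22 (-0.22 ± 0.60), both overlapping between the groups. Fcgr1a had 4, 8, 3 and 11 UMIs, and at 13.2 and 15.3 CPM in TBI against 16.1 and 30.5 in control it was the only member with both TBI rats below both controls, an order found in 13% of the genes tested. Its Log2FC was -0.77 ± 0.66 (95% interval -2.27 to 0.72, edgeR FDR 0.999). Clec4a2, with 8 UMIs, was not tested. The median Log2FC of the 7 tested genes was -0.30, and it was -1.32 without TBI rat 2, 0.27 without TBI rat 1 and 0.39 without the naive rat, so no direction can be read from it.

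**Figure D5:**
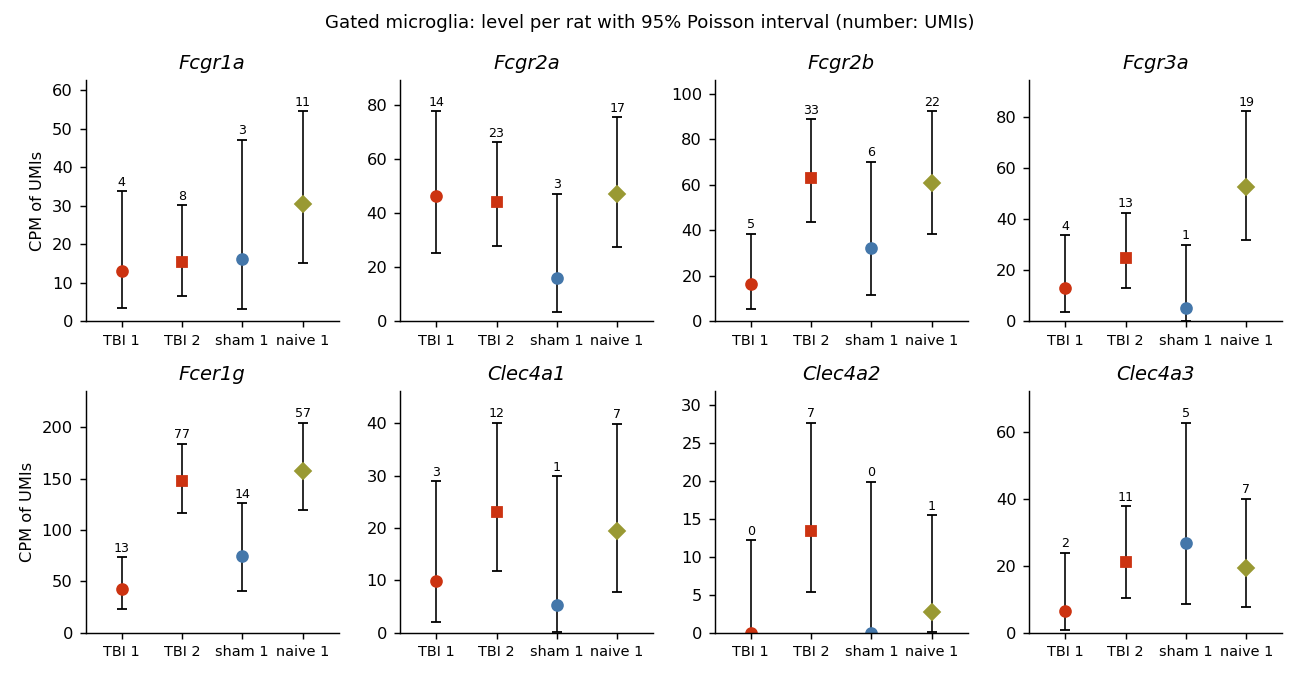
Level of each gene in gated microglia in CPM of UMIs (vertical axes, each starting at 0), 1 point per rat with its 95% Poisson interval, which covers counting error only, and the number of UMIs above it. For Fcer1g the intervals of the TBI rats (22.9 to 73.5 and 116 to 184) do not overlap with each other, and for Fcgr3a those of the sham and naive rats do not.

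The signalling list gave no call in this comparison either (0 of 21 tested by edgeR and by DESeq2, 0 at an unadjusted p under 0.05), with a median Log2FC of -0.14. The smallest p values belonged to Plcg2 (-0.58 ± 0.33), Ptpn6 (0.91 ± 0.54) and Lat2 (-0.62 ± 0.41). The gate markers themselves had a median of -0.09 over 13. Of the other Fc-binding receptors 4 could be tested, with 0 calls, and Fcrl2 (-1.74 ± 0.79), Fcrl1 (-1.26 ± 1.12) and Trim21 (-0.85 ± 0.82) had the smallest p. Of the other lectins Cd302 (-0.76 ± 0.41) and Mrc1 (-0.87 ± 1.41) could be tested, and of the immunoglobulin chains Ighm (0.36 ± 0.72). Fcrl2 and Mrc1 were thus among the genes with the smallest p of their lists in bulk and had negative, uncalled values in microglial nuclei.

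Markers of other blood-derived or border cells were counted in the gate. Border macrophage markers had 2, 37, 27 and 4 UMIs in the microglia of TBI rats 1 and 2, sham and naive (6.61, 70.9, 145 and 11.1 CPM), and 0, 6, 4 and 0 gated nuclei carried at least 2 of them. Markers of monocytes and neutrophils had 8 UMIs in all, those of T and NK cells 6, and those of B and plasma cells 1. Dendritic cell markers had 100 UMIs, 24, 35, 18 and 23 in the same order of rats, nearly all from Itgae, Zbtb46 and Flt3, while Xcr1, Clec9a and Ccr7 were at 0 and Batf3 had 6. Itgae and Zbtb46 were not called between microglia and the other nuclei (edgeR FDR 0.322 and 0.621), and Flt3 was lower in microglia (Log2FC -1.82). Batf3 was higher in microglia at an FDR under 0.01 (Log2FC 4.56). By edgeR, 4 of 7 border macrophage markers tested and 1 of 2 monocyte and neutrophil markers, Plac8 (4.06), were also called higher there. That call fell to 8.44% of all genes tested. The border macrophage sum was highest in the sham rat, where Clec4a3 was also highest and Fcgr2a, Fcgr3a and Clec4a1 were lowest, and its part in these values was not tested. In bulk, the monocyte and neutrophil markers present were Plac8 (Log2FC 0.93 ± 0.39) and S100a9, at 5.35 ± 9.27 CPM in sham and 0.348 ± 0.190 CPM in TBI (SD, n = 3 each). The 4 dendritic cell markers present had a median Log2FC of 0.14, the highest being Batf3 with 2.37, and the 2 T and NK cell markers present a median of 0.27.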

How the data were processed

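Dentate gyrus RNA was measured in 6 bulk libraries and 4 nucleus libraries, grouped by their sample labels. The authors' bulk reads went through kallisto, and its estimated counts of 31715 transcripts were deposited without scaling. A second deposited bulk table gives log2 CPM for 14166 genes, which the authors had filtered on annotation, abundance and variance. From it, gene counts were recovered by undoing the log2 scaling and the 0.5 added to each count, and were rounded for the count models. For 9798 of the genes (69.2%) they equalled 1 transcript within 0.01, as for Fcgr3a, Fcer1g, Clec4a1 and Clec4a3 but not for Fcgr1a and Fcgr2b. The counts of Fcgr2b were fractional (180.92 in sham library 1), so its reads may be split between copies. Those of Fcgr1a were whole numbers. Entrez rows were matched to symbols in a RefSeq table of GRCr8 (13778 named). UMI counts of nuclei, 1 matrix per rat, were made by the authors with Cell Ranger on Rnor_6.0, reads in introns included. Some entries are stored as 0 and were read as 0.

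Nuclei were kept by the study's limits: 500 UMIs, 300 features and a ratio of log10 genes to log10 UMIs of 0.8 as minimums, and 5% mitochondrial and 2% ribosomal UMIs as maximums. Classes came from the marker gate, as no annotation of nuclei was used here, and doublets were kept. Tests used the quasi-likelihood method of edgeR 4.0.16 after TMM scaling, with Benjamini-Hochberg adjustment over all genes tested and calls at an FDR of 0.01. For nuclei it was run on UMI sums per rat over genes with at least 10 UMIs. DESeq2 1.42.0 (the study's tool for bulk), limma 3.58.1, other normalization, filters, gates and left-out libraries were run as alternatives in R 4.3.3, and the tests were tested on simulated data. Replicates are separate rats. Poisson intervals are 95% intervals and limits from a count of 0 use 3 counts, and both cover counting error only. Python 3.11.15 and matplotlib 3.10.9 were used.

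The members and the gene lists were chosen with earlier results of these data known. The text names all 8 members, the 3 genes with the smallest p of each list of pathway genes in each comparison, and the 5 genes most like Clec4a3 and Fcer1g.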

Additional observations from a re-analysis of the deposited data

Results flagged for a closer look

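Fcgr1a, the high-affinity IgG receptor, was flagged because its 2 assays pointed in opposite directions and the levels of the groups overlapped in neither. Its bulk level was higher in all 3 TBI libraries (Log2FC 0.62), while in gated microglia both TBI rats were lower than both controls (Log2FC -0.77, from 4 and 8 UMIs in TBI and 3 and 11 in control). The rats and the RNA fraction differ between the assays, and the difference between the directions was not tested. In the microglia comparison 13% of the genes had both TBI rats below both controls, and in bulk 11.7% had all TBI libraries above all sham libraries. The order in microglia rests on 15.3 CPM in TBI rat 2 against 16.1 CPM in the sham rat. The Poisson intervals of these levels, 6.6 to 30.2 and 3.3 to 47.1 CPM, overlapped, so the gap lies within counting error. Fcgr2b, Fcgr3a, Fcer1g and Clec4a3 also had a positive Log2FC in bulk and a negative one in microglia, while Clec4a1 was positive in both. The nucleus matrices name genes by symbol only, and Fcgr3a is an older symbol of Fcgr2a. The Fcgr3a values of the 2 assays may therefore belong to different genes.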

How the results depend on the processing

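Single libraries decide the microglia values: 2 rats face 2, and a gene has 8 to 161 UMIs in the gate. The count of bulk genes called at an FDR of 0.01 was 0 by edgeR and 169 by DESeq2, 475 by DESeq2 when only genes with an unadjusted p under 0.05 were adjusted, and 1 by edgeR with a replicate block. Same-numbered bulk libraries deviated from their group means with correlations of 0.401, 0.262 and -0.0555, so they were not taken as pairs, and sham replicate 3 correlated best with TBI replicate 2 (0.178). The bulk median Log2FC of the 6 genes lay between 0.73 (without TBI replicate 2) and 1.38 with each library left out, and all 72 refitted values of single members stayed above 0. In microglia TBI against control, 2 genes were called when genes with at least 1 UMI were tested, and 0 to 1 with a rat left out, and the median of the members ran from -1.32 to 0.39. With a rat left out, Fcgr2a ran from -0.086 to 1.41, Fcgr2b from -1.57 to 0.38, Fcgr3a from -1.39 to 1.77, Fcer1g from -1.51 to 0.39 and Clec4a1 from -0.50 to 1.58, the lone rat of a group being taken to vary like the others. Clec4a1 was -0.044 with a gate of 4 markers and -0.56 with a gate of 2 markers and ties kept, an alternative chosen after seeing the data. No member was called in any of these fits. Of the genes differing between microglia and other nuclei, 3358 were called in the main test and 1245 among nuclei of at least 1000 UMIs, a setting with fewer nuclei, and in that setting Fcgr1a lost its call. The other 79 of the 80 refitted values of the members in that comparison kept their direction and their side of the threshold. The cause of the other changes was not tested.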
